A study of Homo sapiens with 8 samples.

Results

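The human mitochondrial genome supplied 37 of the 58735 genes in the deposited expression table: 13 mRNAs, 2 rRNAs and 22 tRNAs, taken as every row whose chromosome is MT. Their levels were measured by bulk RNA sequencing in a human hepatic cell line, HepaRG, and in M14A, a gene-edited derivative. The HepaRG flask group held 3 wild-type libraries from planar culture. The M14A flask group held 3 libraries from planar culture, with a genotype label of FoxM1/HNF4A transfected, and the sources used here do not say whether M14A is a single clone. The M14A printed group held 2 libraries of the same genotype, from cells mixed into the GP bioink, bioprinted and collected 4 hours afterwards. All cells are labelled as hepatic stem cells of the HepaRG line. Flask cells were detached, pelleted and lysed in TRIzol, whereas printed architectures went through liquid nitrogen and grinding ahead of TRIzol, so printing and the way of collecting cannot be told apart. Whether replicates were separate cultures is not stated, so every p-value reflects only library-to-library spread, which may be technical. In bulk RNA, fewer cells of a type and less RNA per cell cannot be told apart either.

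Each library held 15632154 to 19148262 reads assigned to genes. HNF4A was at 5.67, 6.24 and 6.50 FPKM (fragments per kilobase of gene, scaled by library, the unit of all levels here) in HepaRG flask, 37.9, 43.1 and 41.7 in M14A flask and 17.1 and 13.6 in printed cells. FOXM1 was at 12.9, 13.7 and 14.9, at 13.004, 10.4 and 8.92 and at 10.1 and 10.1 FPKM in the same order. The summed FPKM of 6 hepatocyte markers was 21.8 to 24.1 in HepaRG flask, 357 to 516 in M14A flask and 564 to 586 in printed cells, with TTR and TF under 1 FPKM everywhere. Summed endothelial markers (5 genes, CDH5 at 0) reached 2.35 FPKM at most and summed leukocyte markers (5 genes, PTPRC and CD3E near 0) reached 11.8. Summed fibroblast and stellate markers (6 genes, COL1A2 near 0) ran from 18.1 to 19.99, through 26.8 to 58.9, to 71.6 to 80.4 FPKM, mostly from DCN and LUM, and summed biliary and progenitor markers (6 genes) were 116 to 121, 26.3 to 62.0 and 46.9 to 50.3. Between the flask lines SERPINA1 (4.94), ALB (3.10), DCN (2.73), LAPTM5 (1.60), CD14 (0.72) and KDR (0.65) were called higher and CD24 (-3.73), SPP1 (-2.34) and PDGFRB (-1.39) lower, as log2 fold changes by limma. CD24 and PDGFRB were below 1 FPKM in every M14A library, so they passed the filter on low values only through HepaRG flask, where they are high. LAPTM5 and KDR were below 1 FPKM in HepaRG flask and passed only through M14A libraries. Unlike CD24 and SPP1, KRT7 of the same list was higher in M14A flask, at 1.82 to 2.22 FPKM against 0.455 to 0.468 in HepaRG flask. In printed cells ALB (1.59), KRT7 (1.14), APOA1 (1.07) and DCN (0.90) were called higher, and LAPTM5 (0.37) and KDR (-0.21) were not called. Against 17.7% of all genes called higher and 15.5% lower, 2 of 4 tested hepatocyte markers were called higher and 0 lower. Their list also holds APOB, at 23.4, 72.7 and 65.1 FPKM in M14A flask and 17.7 and 34.6 in printed cells, with overlap. COL1A1, of the list that holds DCN, was at 1.16, 0.668 and 0.528 FPKM and then lower, at 0.327 and 0.214. The part of these markers in the mitochondrial results was not tested. The M14A flask library numbered 1 was unlike its 2 partners: its log2 levels correlated with theirs at 0.957 and 0.948 (Pearson), against 0.988 between the partners, so the values it moves most are also given without it.

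Mitochondrial DNA is transcribed from both strands into long precursors that span many genes. The tRNAs lie between most of the mRNAs and rRNAs, and their excision by RNase P and ELAC2 frees the neighbouring RNAs. The 13 proteins are core subunits of respiratory complexes I, III and IV and of the ATP synthase, which nuclear genes complete with many further subunits, and the 2 rRNAs and 22 tRNAs serve only the mitochondrial ribosome. Liver cells depend heavily on oxidative phosphorylation. The strand of the rRNAs, 12 mRNAs and 14 tRNAs gives what is called here the heavy-strand transcript, and the other strand gives MT-ND6 and 8 tRNAs.

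The sequences below are those on which the later results turn, read from GENCODE 29 transcripts (GRCh38), which matched all 37 genes. Each of the 3 tRNAs that carried nearly all tRNA reads lies on the light-strand transcript. They decode asparagine, cysteine and proline, and are shown 5′ to 3′ with the anticodon in capitals.
MT-TN (MT:5657-5729, minus strand): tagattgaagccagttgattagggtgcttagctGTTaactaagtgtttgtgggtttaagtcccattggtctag
MT-TC (MT:5761-5826, minus strand): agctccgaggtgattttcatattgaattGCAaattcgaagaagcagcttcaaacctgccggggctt
MT-TP (MT:15956-16023, minus strand): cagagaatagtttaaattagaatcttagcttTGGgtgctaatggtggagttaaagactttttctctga

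Another 4 tRNAs, all on the heavy-strand transcript, were called lower in printed cells. They decode arginine, histidine, glycine and leucine (CUN codons), and are shown in the same way.
MT-TR (MT:10405-10469, plus strand): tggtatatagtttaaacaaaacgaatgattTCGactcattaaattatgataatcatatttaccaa
MT-TH (MT:12138-12206, plus strand): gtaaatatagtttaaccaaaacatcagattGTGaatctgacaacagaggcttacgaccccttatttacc
MT-TG (MT:9991-10058, plus strand): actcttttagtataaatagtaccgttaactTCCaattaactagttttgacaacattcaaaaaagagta
MT-TL2 (MT:12266-12336, plus strand): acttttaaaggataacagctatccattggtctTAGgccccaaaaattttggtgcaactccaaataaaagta

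The pairs MT-ATP8/MT-ATP6 and MT-ND4L/MT-ND4 each stay joined in a single mRNA, and their reading frames overlap by 46 and 7 bases. The end of the first frame is shown for each pair, with the bases shared with the second frame in capitals, because reads on shared bases can be lost or split in gene counting.
MT-ATP8, last 60 bases (MT:8513-8572): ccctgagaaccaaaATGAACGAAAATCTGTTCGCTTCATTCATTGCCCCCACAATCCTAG
MT-ND4L, last 30 bases (MT:10737-10766): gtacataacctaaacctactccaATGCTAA

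The annotated ends of the mRNAs show a feature that is not used in choosing them. In 6 of 13 the gene stops 1 or 2 bases into the stop codon, and in the cell the poly(A) tail completes it. The last 15 bases of 3 such genes and of 2 with a complete stop codon are shown, with the stop codon bases in capitals.
MT-ND1 (MT:4248-4262): tccccctcaaaccTA
MT-CO3 (MT:9976-9990): attgatgagggtctT
MT-CYB (MT:15873-15887): tactcaaatgggccT
MT-CO2 (MT:8255-8269): gtatttaccctaTAG
MT-ND5 (MT:14134-14148): ctcctaatcacaTAA

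Mitochondrial genes took up 6.91, 7.01 and 7.25% of reads in the HepaRG flask libraries, 9.72, 8.21 and 8.70% in M14A flask and 13.3 and 16.4% in M14A printed. The 3 groups did not overlap. The difference of means was 1.82 percentage points between the flask lines (exact permutation test over libraries, two-sided p = 0.1) and 5.98 points between printed and flask M14A (exact permutation test, p = 0.2). These are the smallest p-values that 3 against 3 and 2 against 3 libraries allow, so neither share can pass 0.05. The differences were 1.40 and 6.40 points without M14A flask library 1. The mRNAs supplied most of these reads, at 5.76, 5.87 and 6.07% in HepaRG flask, 6.96, 6.45 and 6.92% in M14A flask and 8.22 and 10.8% in printed cells. The share of the 2 rRNAs was 1.11, 1.09 and 1.14%, then 2.71, 1.70 and 1.73%, then 4.97 and 5.50%. The tRNAs together made 0.0448, 0.0408 and 0.0456%, 0.0533, 0.0604 and 0.0540% and 0.127 and 0.111% of reads. Each class held a larger share in every M14A flask library than in any HepaRG library, and a larger share again in both printed libraries. In each group 9 of the 10 genes with the highest mean FPKM were mitochondrial.

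**Figure D1:**
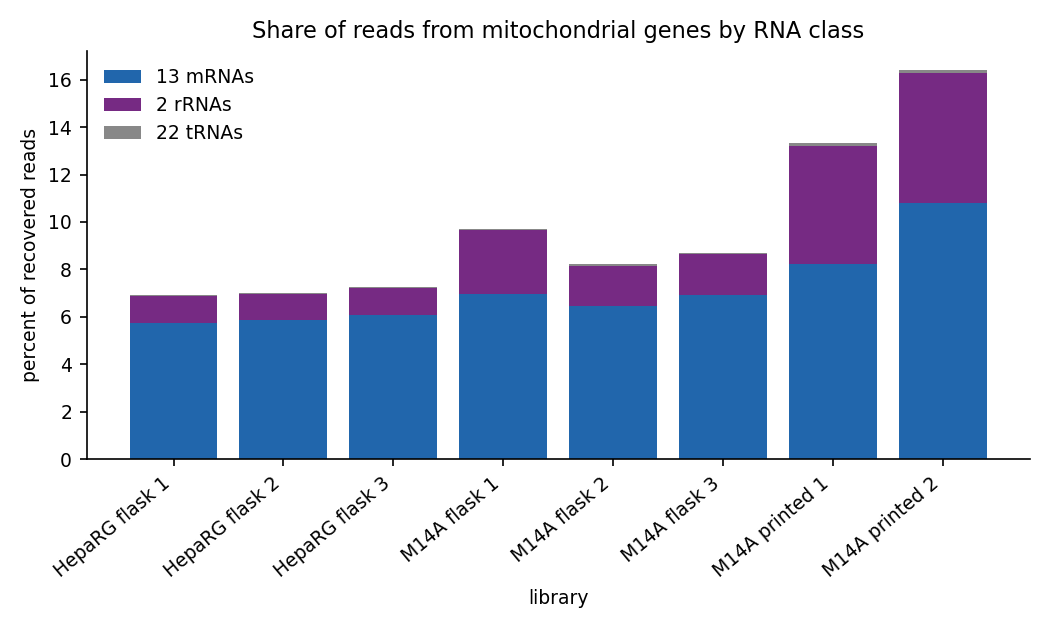
Stacked bars give the percent of each library's reads that came from the 13 mRNAs, 2 rRNAs and 22 tRNAs of the mitochondrial genome, 1 bar per library. The printed libraries reach 13.3 and 16.4%, above all 6 flask libraries, and their rRNA segment is 4.97 and 5.50% against 1.09 to 2.71% in flask libraries.

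The first comparison sets M14A against HepaRG, both grown in flasks. In M14A flask cells both mitochondrial rRNAs were higher, at 1.81-fold for MT-RNR1 and 1.97-fold for MT-RNR2, and 4 of 13 mRNAs (MT-ATP6, MT-CO3, MT-ND5 and MT-ND6) were higher by 1.35- to 1.54-fold. No mRNA was lower. Among tRNAs, MT-TN and MT-TP were higher and MT-TK and MT-TR lower. In all, 8 of 37 genes were called higher and 2 lower (limma, Benjamini-Hochberg adjusted p below 0.05 over 14349 genes), against 16.1% of all genes higher and 14.7% lower. The median log2 fold change of the 13 mRNAs was 0.19, and that of all genes tested was -0.04. Levels of 7 mRNAs were higher in all 3 M14A flask libraries than in any HepaRG library, and 6 overlapped. The share of all genes without overlap was not computed, so nothing about the mRNAs is read from this number. The count is not firm: leaving out a HepaRG library left 2 to 4 genes called higher, and removing M14A flask library 1 left 7 higher and 4 lower. With quantile scaling the split was 5 higher and 3 lower, and with equal FPKM totals 6 and 4. Calls over all genes moved too, from 2317 higher and 2112 lower of 14349. They were 1569 to 1632 higher without a HepaRG library, and 2893 higher and 3224 lower of 14219 without M14A flask library 1. Quantile scaling gave 2653 and 2547 of 14349, and equal FPKM totals 2070 and 3543 of 14928.

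The second comparison sets M14A cells 4 hours after printing against M14A cells in flasks. Both rRNAs were higher, at 5.47-fold for MT-RNR1 and 3.19-fold for MT-RNR2, and 7 mRNAs were higher by 1.52- to 2.93-fold, including all 3 complex IV subunits. MT-ND5, the longest mRNA, fell to 0.555 times its flask level. Among tRNAs 6 were higher and 4 lower. In all, 15 of 37 genes were called higher and 5 lower by the same test, against 17.7% and 15.5% of all genes. The median log2 fold change was 0.61 for the 13 mRNAs and 0.01 for all genes tested. For 7 mRNAs both printed libraries lay above all M14A flask libraries, for MT-ND5 both lay below, and 5 mRNAs overlapped. Here too the share of all genes without overlap was not computed, and these numbers are a description only. Without M14A flask library 1 the counts were 18 higher and 6 lower. Calls over all genes rose as well in that fit, from 2544 higher and 2226 lower of 14349 to 4040 and 3849 of 14219. Both comparisons use the M14A flask libraries, so their values are given side by side only.

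FPKM totals ranged from 254141 in HepaRG flask to 514152 in printed cells, and the deposited scaling left these unequal, so the choice of scale bears on the direction of single genes. Setting every library to an equal total put the median gene at a log2 fold change of -0.51 in printed cells and -0.22 between the flask lines. Relative to that median the rRNAs stayed higher in printed cells, at 2.19 for MT-RNR1 and 1.42 for MT-RNR2, as did MT-CO2 at 1.29 and MT-CO3 at 0.93, while MT-ND5 stayed lower at -1.11. MT-CO1 at 0.62, MT-ND2 at 0.69, MT-CYB at 0.46 and MT-ND1 at 0.35 lay above that median. The test uses values not set against the median, and there these genes were at 0.11, 0.18, -0.043 and -0.16 and no longer passed. On that same scale MT-ATP6, MT-ND4 and MT-ATP8, which were not called, turned to -0.31, -0.33 and -0.56. Relative to the median they were at 0.20, 0.18 and -0.053. The split of calls in printed cells was then 9 higher and 7 lower. Over all 14928 genes tested on that scale, 483 were called higher and 6779 lower. Quantile scaling, which by construction gives all libraries the same highest values, where the mitochondrial genes sit, gave 6 higher and 12 lower. Over all 14349 genes it gave 2347 higher and 2419 lower.

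**Figure D2:**
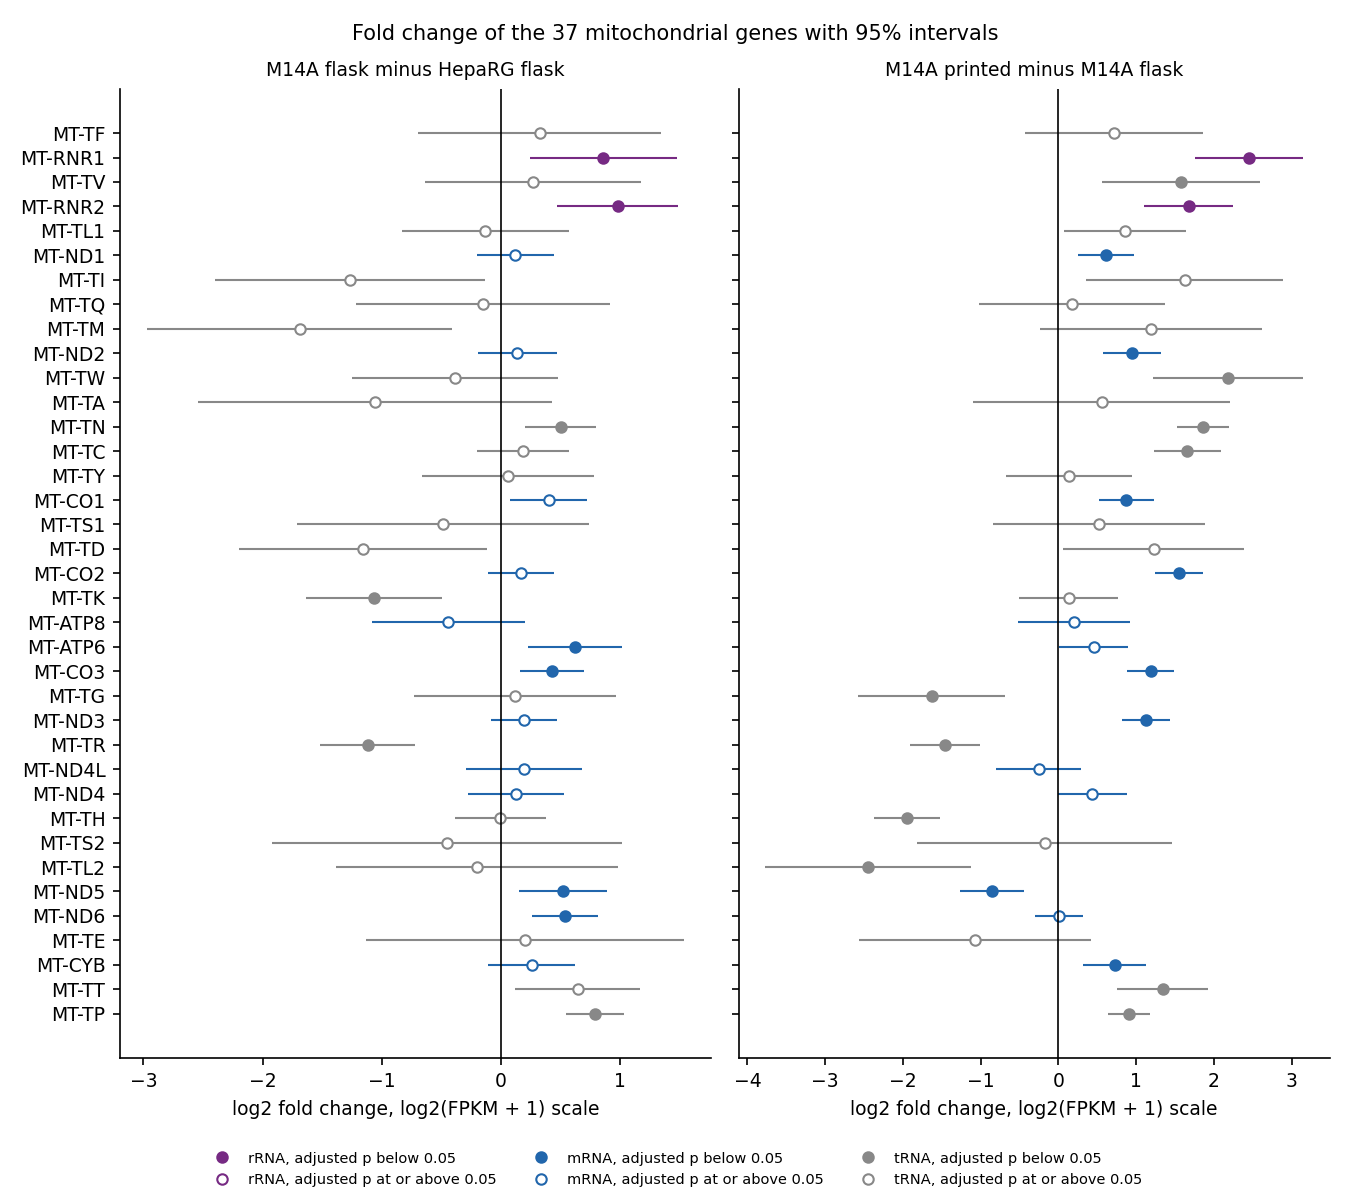
Points give the log2 fold change of each mitochondrial gene with its 95% interval, in order along the genome, for M14A flask minus HepaRG flask (left) and M14A printed minus M14A flask (right); filled points passed an adjusted p of 0.05. MT-RNR1 and MT-RNR2 are filled and to the right of 0 in both panels, and MT-ND5, MT-TG, MT-TR, MT-TH and MT-TL2 are filled and to the left of 0 in the printed panel.

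MT-RNR1, the RNA of the small mitochondrial ribosomal subunit (MT:648-1601), was at 1142, 1162 and 1106 FPKM in HepaRG flask, 3459.5, 1635 and 1549.5 in M14A flask and 11306 and 11240.5 in printed cells. The 3 groups did not overlap, and M14A flask library 1 was far above libraries 2 and 3. The log2 fold change was 0.86 ± 0.27 (SE; adjusted p = 0.042) between the flask lines and 2.45 ± 0.30 (SE; adjusted p = 0.0011) in printed cells, by limma as for all fold changes below. Without M14A flask library 1 these became 0.49 and 2.82, and both stayed called. The flask-line call was lost when any HepaRG library or either printed library was left out. MT-RNR2, the RNA of the large subunit (MT:1671-3229), was at 5216, 5122 and 5514 FPKM in HepaRG flask, 15839, 8455 and 8409.9 in M14A flask and 32013 and 34479.8 in printed cells. Again no group overlapped another and the same library was the highest of its group. The log2 fold changes were 0.98 ± 0.22 (SE; adjusted p = 0.011) and 1.67 ± 0.25 (SE; adjusted p = 0.0020), and 0.67 and 1.98 without that library.

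The large rRNA exceeded the small one everywhere. The ratio of MT-RNR2 to MT-RNR1 FPKM was 4.57, 4.41 and 4.99 in HepaRG flask, 4.58, 5.17 and 5.43 in M14A flask and 2.83 and 3.07 in printed cells, where both libraries lay below all flask libraries (exact permutation test, printed against M14A flask, p = 0.2, the smallest possible). Mitochondrial rRNAs carry short oligo(A) tails, and their share of a library can depend on how RNA was selected, which the sources used here do not state. Of 8 nuclear-retained or unpolyadenylated RNAs, such as MALAT1 and RN7SL2, the summed FPKM was 88.7 to 689 in HepaRG flask, 321 to 509 in M14A flask and 104 to 145 in printed cells, with RN7SL2 alone at 24.6 to 622 over the 8 libraries and RN7SK, RN7SL1, RMRP and RPPH1 at 0. MALAT1 was called lower between the flask lines, at -1.42, and RN7SL2 was not called in printed cells, at -2.15. Their part in the rRNA result was not tested.

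Reads of rRNA per read of mRNA, a ratio that does not change when a library is scaled by a single factor, were 0.193, 0.186 and 0.187 in HepaRG flask, 0.390, 0.263 and 0.2501 in M14A flask and 0.604 and 0.509 in printed cells. The groups did not overlap. On the log2 scale the mean was higher by 0.64 in M14A flask than in HepaRG flask (exact permutation test, p = 0.1) and by 0.91 in printed than in flask M14A (exact permutation test, p = 0.2), and in each case that is the smallest possible p. These differences were 0.44 and 1.11 without M14A flask library 1, whose ratio was the highest of its group.

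Within the mRNAs the order of levels was nearly the same in both flask groups. In HepaRG flask MT-CO1 led at 11136 ± 492 FPKM (SD, n = 3), followed by MT-CO2 at 9595 ± 562 and MT-CO3 at 5803 ± 33.8, and none of these neighbours overlapped. MT-ND4 and MT-ATP6 came next and overlapped each other. MT-ND4L followed, and then MT-CYB, MT-ND2, MT-ND1 and MT-ND3, where each overlapped the next. MT-ND6 at 1146 ± 109 and MT-ND5 at 1040.2 ± 191 overlapped, and MT-ATP8 was last at 169 ± 21.2 FPKM. In printed cells MT-CO2 led, at 31587 ± 944 FPKM (SD, n = 2), and overlapped MT-CO1 at 27187 ± 5637. MT-ND5 stood at 824 ± 143 FPKM there, below MT-ND6 at 1663 ± 33.3 with no overlap.

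**Figure D3:**
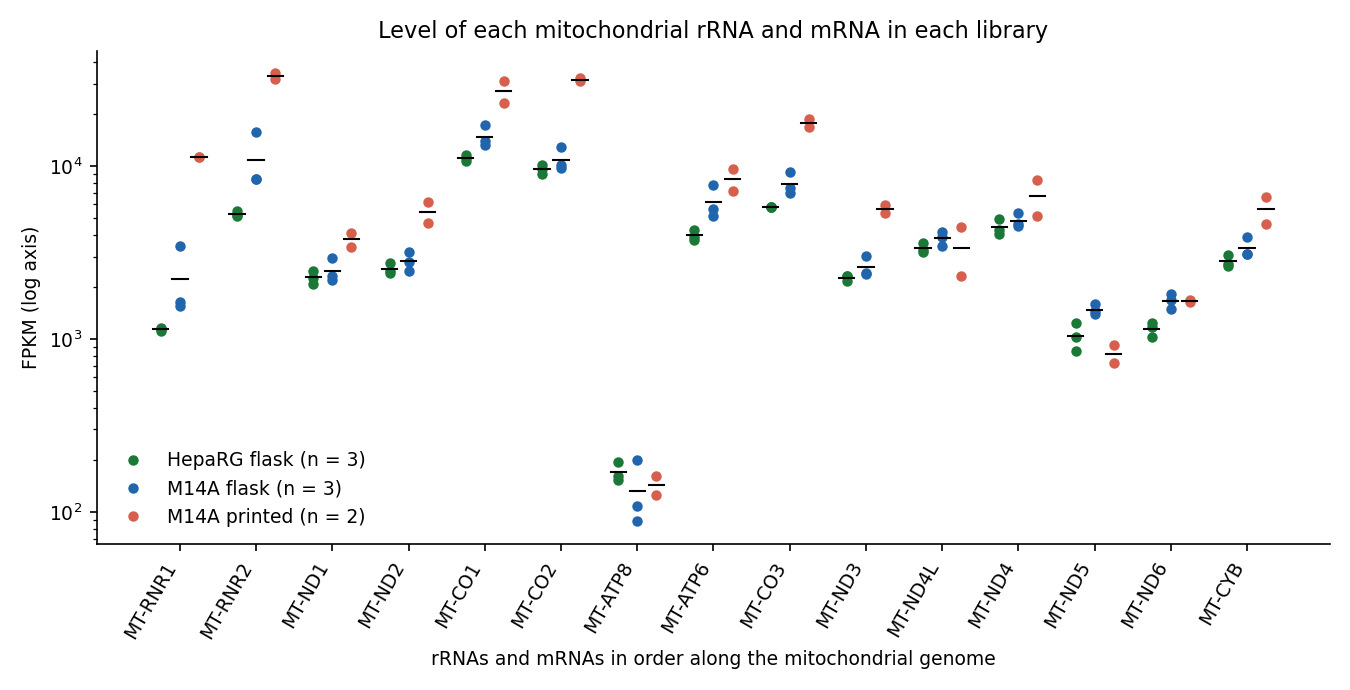
Each point is the FPKM (log axis) of an rRNA or mRNA in a library, and each black line is the group mean, for HepaRG flask (n = 3), M14A flask (n = 3) and M14A printed (n = 2), in order along the genome. Both printed libraries sit above all 6 flask libraries for the rRNAs and the MT-CO genes, the printed mean is the lowest of the 3 for MT-ND5, and MT-ATP8 has the lowest mean in every group.

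The 3 mitochondrial subunits of complex IV, cytochrome c oxidase, form its catalytic core. MT-CO1 (MT:5904-7445), which binds the heme and copper where oxygen is reduced, was at 10635, 11619 and 11153 FPKM in HepaRG flask, 17191, 13192 and 13943 in M14A flask and 23201 and 31173 in printed cells. No groups overlapped, but only the printed comparison passed, at 0.87 ± 0.16 (SE; adjusted p = 0.0043), against 0.40 ± 0.14 (SE; adjusted p = 0.061) between the flask lines, where leaving out either printed library from the shared fit brought the call in. MT-CO2 (MT:7586-8269), which takes electrons from cytochrome c, was at 9616, 9022 and 10146 FPKM in HepaRG flask, 12858, 9696 and 10083 in M14A flask and 30919 and 32254 in printed cells. The flask lines overlapped and both printed libraries lay far above them, with log2 fold changes of 0.17 ± 0.12 (SE; adjusted p = 0.31) and 1.55 ± 0.14 (SE; adjusted p = 0.00053). MT-CO3 (MT:9207-9990) was at 5764, 5819 and 5825 FPKM in HepaRG flask, 9187, 7009 and 7430 in M14A flask and 16878 and 18736 in printed cells. It rose in both comparisons, by 0.43 ± 0.12 (SE; adjusted p = 0.024) and 1.18 ± 0.13 (SE; adjusted p = 0.00079), with no overlap between groups, although the flask-line call was lost without any HepaRG library. Removing each library's trend with gene length left MT-CO3 at 0.29 between the flask lines, and no longer called. All 3 complex IV mRNAs stayed called in printed cells without M14A flask library 1. The levels of MT-CO2 and MT-CO1 did not move in step. The ratio of MT-CO2 to MT-CO1 FPKM, chosen after its values were seen, was 0.904, 0.776 and 0.910 in HepaRG flask, 0.748, 0.735 and 0.723 in M14A flask and 1.33 and 1.03 in printed cells.

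Complex I, NADH dehydrogenase, takes 7 subunits from the mitochondrial genome, all in its membrane arm. MT-ND1 (MT:3307-4262), at the ubiquinone site, was at 2255, 2092 and 2470.2 FPKM in HepaRG flask, 2925, 2329 and 2195 in M14A flask and 3429 and 4112 in printed cells. The flask lines overlapped and the printed libraries lay above both, with a log2 fold change of 0.61 ± 0.16 (SE; adjusted p = 0.019). This call was lost without M14A flask library 2 or 3 and with only the 2 compared groups fitted. It was also lost with the length trend removed, where the value was 0.31. Without printed library 2 the value was 0.48. MT-ND2 (MT:4470-5511), an antiporter-like subunit, was at 2481, 2411 and 2767, at 3190.3, 2478 and 2790.2 and at 4676 and 6239 FPKM in the same order of groups. It was higher in printed cells, by 0.95 ± 0.16 (SE; adjusted p = 0.0035), and the flask lines overlapped. MT-ND3 (MT:10059-10404), which lines the site where the membrane arm meets the arm in the matrix, was at 2303, 2179 and 2301 FPKM in HepaRG flask, 3018, 2385 and 2399 in M14A flask and 5942 and 5383 in printed cells, and no groups overlapped. Its printed value of 1.13 ± 0.13 (SE; adjusted p = 0.00098) was the largest among the 7 mitochondrially encoded subunits of complex I. Between the flask lines these 3 had log2 fold changes of 0.12, 0.14 and 0.19 (adjusted p of 0.55, 0.50 and 0.25).

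MT-ND4 (MT:10760-12137) and MT-ND4L (MT:10470-10766) are read from a shared mRNA. MT-ND4, another antiporter-like subunit, was at 4284, 4044 and 4923 FPKM in HepaRG flask, 5328, 4506 and 4649.9 in M14A flask and 5142 and 8266 in printed cells. The printed libraries differed widely and library 1 lay inside the M14A flask range. Neither comparison passed, at 0.13 ± 0.18 (SE; adjusted p = 0.61) and 0.44 ± 0.20 (SE; adjusted p = 0.12), and without printed library 1 the second became 0.78 and passed. MT-ND4L, a small membrane subunit, was at 3292, 3171 and 3573 FPKM in HepaRG flask, 4139, 3902 and 3446 in M14A flask and 2312 and 4429 in printed cells. Printed library 1 was the lowest of all 8 and library 2 the highest, and the log2 fold change was -0.25 ± 0.24 (SE; adjusted p = 0.45). Without printed library 2 it was -0.72, and with equal FPKM totals -1.02, and both passed. The ratio of MT-ND4L to MT-ND4 FPKM was steadier, at 0.768, 0.784 and 0.726 in HepaRG flask, 0.777, 0.866 and 0.741 in M14A flask and 0.450 and 0.536 in printed cells, both printed values lying below all flask values (exact permutation test, p = 0.2, the smallest possible).

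MT-ND5 (MT:12337-14148), the outermost antiporter-like subunit, was the only mRNA called lower in either comparison. It was at 855, 1237 and 1029 FPKM in HepaRG flask, 1585, 1451 and 1395 in M14A flask and 723 and 925 in printed cells. Printed cells lay below all M14A flask libraries, and the HepaRG range reached down into theirs. The log2 fold changes were 0.52 ± 0.16 (SE; adjusted p = 0.040) and -0.85 ± 0.18 (SE; adjusted p = 0.0085), the second becoming -0.67 and losing its call without printed library 1. The flask-line call was lost without any M14A flask library and without HepaRG library 1 or 3. Of all mRNA reads MT-ND5 held 3.24, 4.58 and 3.62% in HepaRG flask, 4.00, 4.70 and 4.33% in M14A flask and 1.30 and 1.32% in printed cells. The share in the printed libraries was thus less than all flask shares (exact permutation test, p = 0.2, the smallest possible). Set against MT-CYB, which lies downstream on the same strand, its FPKM ratio was 0.314, 0.470 and 0.335 in HepaRG flask, 0.407, 0.468 and 0.448 in M14A flask and 0.157 and 0.140 in printed cells, a ratio also chosen after its values were seen.

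MT-ND6 (MT:14149-14673) is the only mRNA of the light-strand transcript and is known to carry little or no poly(A) tail. Its sequence holds 35.6% G, against 6.28 to 16.2% in the 12 other mRNAs. It was at 1027, 1241 and 1170.3 FPKM in HepaRG flask, 1824, 1495 and 1675 in M14A flask and 1639.8 and 1687 in printed cells. M14A flask lay above HepaRG flask with no overlap (0.54 ± 0.12 SE, adjusted p = 0.010), and printed cells fell within the M14A flask range (0.00 ± 0.14 SE, adjusted p = 0.99, 95% interval -0.31 to 0.31). The flask-line call was lost without HepaRG library 1, at 0.46. Under equal totals its printed value was -0.76 and called lower, which is -0.25 relative to the median gene. It was also called lower with quantile scaling, at -1.10, and with equal totals outside the mitochondrial genome, at -0.58. Per 100 reads of heavy-strand mRNAs there were 1.14, 1.35 and 1.21 MT-ND6 reads in HepaRG flask, 1.35, 1.42 and 1.53 in M14A flask and 0.864 and 0.705 in printed cells. The log2 ratio was higher by 0.22 in M14A flask than in HepaRG flask (exact permutation test, p = 0.1) and fell by 0.88 in printed cells (exact permutation test, p = 0.2). No values overlapped between the groups compared, and both p-values are the smallest possible. Without a known strand setting, reads of MT-ND6 and of heavy-strand precursors across it cannot be told apart.

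MT-CYB (MT:14747-15887), cytochrome b, is the only mitochondrial subunit of complex III and binds both of its quinone sites. It was at 2725, 2631 and 3072 FPKM in HepaRG flask, 3894, 3100.3 and 3117 in M14A flask and 4616 and 6614 in printed cells. No groups overlapped, and the printed comparison passed at 0.72 ± 0.18 (SE; adjusted p = 0.016). This call was lost with only the 2 compared groups fitted and with the length trend removed, where the value was 0.42. Without printed library 2 the value was 0.46. Between the flask lines the value was 0.26 ± 0.16 (SE; adjusted p = 0.25).

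The ATP synthase takes MT-ATP6 and MT-ATP8, subunits of its membrane sector. MT-ATP6 (MT:8527-9207), which forms the proton path, was at 3867, 3762 and 4289.7 FPKM in HepaRG flask, 7769, 5149 and 5683 in M14A flask and 7224 and 9678 in printed cells. M14A flask exceeded HepaRG flask in every library (0.62 ± 0.17 SE, adjusted p = 0.026, lost without any HepaRG library), and printed cells overlapped M14A flask (0.45 ± 0.19 SE, adjusted p = 0.11). Without M14A flask library 1 the printed value was 0.63 and passed. MT-ATP8 (MT:8366-8572), upstream in the same mRNA, was listed far lower, at 153, 162 and 193 FPKM in HepaRG flask, 108, 199.6 and 88.1 in M14A flask and 125 and 162 in printed cells. All groups overlapped, and neither comparison passed (-0.44 ± 0.28 SE, adjusted p = 0.26 and 0.20 ± 0.31 SE, adjusted p = 0.66). The flask-line value was -0.79 and passed without M14A flask library 2, which held the highest level. The ratio of MT-ATP8 to MT-ATP6 FPKM was 0.0395, 0.0431 and 0.0451 in HepaRG flask, 0.0139, 0.0388 and 0.0155 in M14A flask and 0.0173 and 0.0167 in printed cells. MT-ATP8 is 207 bases long and shares the 46 bases in capitals above, and the assignment of reads on shared bases is not stated, so its level is uncertain.

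**Figure D4:**
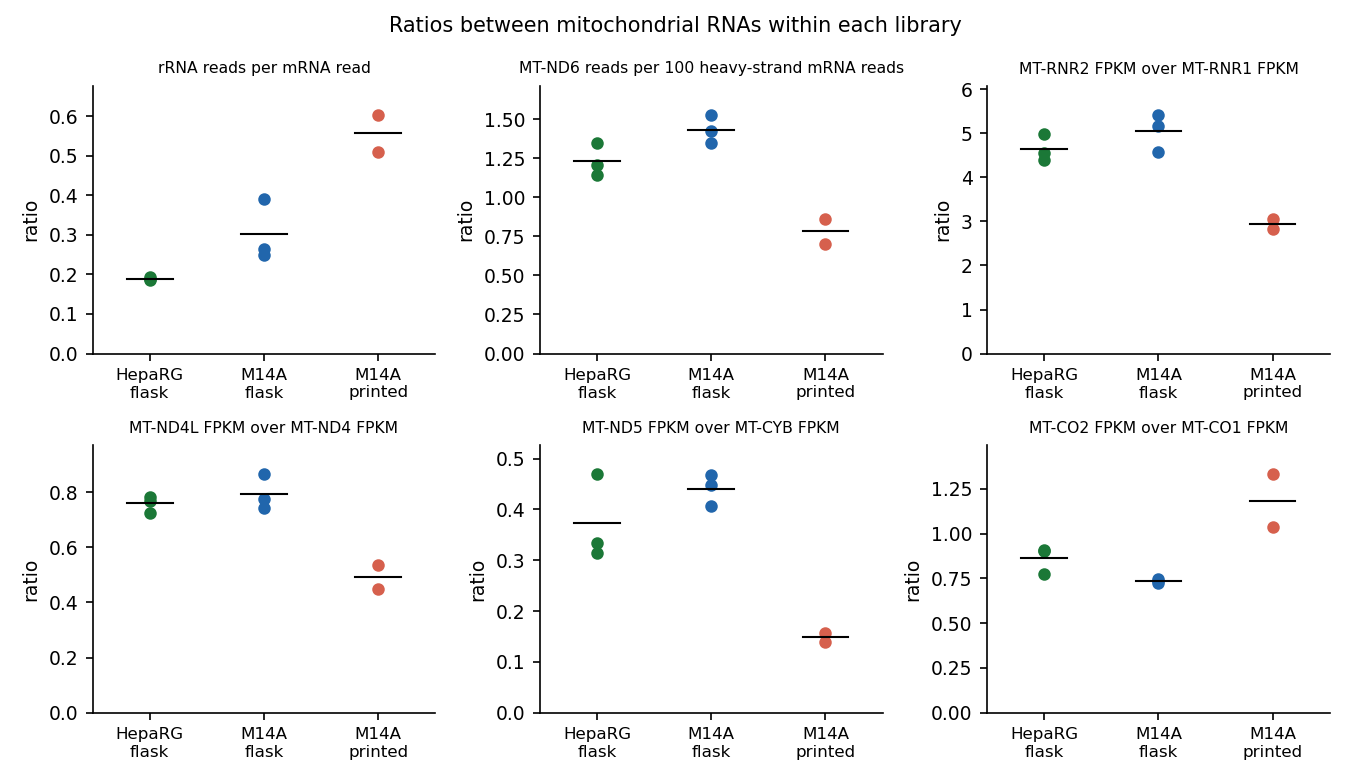
Each panel plots a ratio between mitochondrial RNAs in every library (points) with the group mean (black line), for HepaRG flask (n = 3), M14A flask (n = 3) and M14A printed (n = 2), on axes that start at 0. The printed libraries lie above all flask libraries for rRNA reads per mRNA read and for MT-CO2 over MT-CO1, and below all of them in the other 4 panels.

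Among the 6 mRNAs with an incomplete stop codon, 5 were called higher in printed cells (MT-ND1, MT-ND2, MT-CO3, MT-ND3 and MT-CYB) and MT-ND4 was not called. Among the 7 with a complete one, MT-CO1 and MT-CO2 were called higher, MT-ND5 lower, and MT-ATP8, MT-ATP6, MT-ND4L and MT-ND6 were not called. This is a description of few genes that share precursors, and no link to the stop codon is read from it. Over all genes 17.7% were called higher and 15.5% lower. With equal FPKM totals MT-ND1, MT-ND2 and MT-CYB of the first set and MT-CO1 of the second were not called. MT-ND4L and MT-ND6 of the second set were then called lower, as were 6779 of all 14928 genes tested, with 483 called higher. Over the 13 mRNAs the printed log2 fold change had a Spearman correlation of 0.05 with gene length, -0.46 with position along the genome and 0.57 with the mean level in M14A flask, and these also are descriptions of genes that share libraries.

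The 22 tRNAs were unequally covered. MT-TN, MT-TC and MT-TP had more than 1000 reads in every library and together held 92.2, 90.3 and 91.2% of tRNA reads in HepaRG flask, 94.2, 95.2 and 93.2% in M14A flask and 98.2 and 97.1% in printed cells. Of the rest, 11 had fewer than 20 reads in every library and 8 lay between. Mature tRNAs are short, folded and heavily modified, and a library of the kind made here is not built to capture them. In these counts reads of mature tRNAs, precursors and antisense RNA cannot be told apart.

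MT-TN, the asparagine tRNA, was at 2115, 1852 and 2153 FPKM in HepaRG flask, 3090.4, 2922 and 2647 in M14A flask and 11856 and 9159 in printed cells. No groups overlapped, and both comparisons passed, at 0.50 ± 0.13 (SE; adjusted p = 0.020) and 1.85 ± 0.15 (SE; adjusted p = 0.00045), although the flask-line call was lost without any HepaRG library or M14A flask library 2. MT-TC, the cysteine tRNA that lies next to it, was at 1402, 1149.5 and 1415 FPKM in HepaRG flask, 1692, 1649.5 and 1203 in M14A flask and 5279 and 4224 in printed cells. The flask lines overlapped (0.19 ± 0.17 SE, adjusted p = 0.43) and printed cells were far above both (1.66 ± 0.19 SE, adjusted p = 0.00086). MT-TP, the proline tRNA and first gene of the light-strand transcript, was at 1407, 1409.97 and 1506 FPKM in HepaRG flask, 2661, 2606 and 2236 in M14A flask and 4615 and 4732 in printed cells. It rose in both comparisons, by 0.79 ± 0.11 (SE; adjusted p = 0.00068) and 0.91 ± 0.12 (SE; adjusted p = 0.0013), with no overlap, and the printed call was lost with equal totals, at 0.14.

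Among the 8 tRNAs of middling coverage, MT-TR, the arginine tRNA between MT-ND3 and MT-ND4L, was lower at each step. It was at 86.6, 75.6 and 86.7 FPKM in HepaRG flask, 32.7, 47.3 and 34.4 in M14A flask and 14.9 and 11.4 in printed cells, with no overlap (-1.12 ± 0.17 SE, adjusted p = 0.0016 and -1.46 ± 0.20 SE, adjusted p = 0.0014). The histidine tRNA, MT-TH, just after MT-ND4, was at 54.6, 61.8 and 47.1 FPKM in HepaRG flask, 45.3, 53.4 and 64.8 in M14A flask and 14.1 and 12.5 in printed cells. The flask lines overlapped, and printed cells lay below both (-1.95 ± 0.19 SE, adjusted p = 0.00058). MT-TG, the glycine tRNA between MT-CO3 and MT-ND3, was at 27.3, 60.1 and 44.9, at 33.1, 41.4 and 69.5 and at 19.8 and 9.98 FPKM in the same order (-1.63 ± 0.42 SE, adjusted p = 0.018 in printed cells), and this call was lost without printed library 2 and with the length trend removed. MT-TL2, the leucine tRNA before MT-ND5, had 9, 37 and 25 reads in HepaRG flask, 18, 7 and 28 in M14A flask and 1 and 2 in printed cells, so its call (adjusted p = 0.013) rests on few reads and was lost without either printed library.

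In the other direction, MT-TT, the threonine tRNA after MT-CYB, was at 11.3, 9.89 and 13.7 FPKM in HepaRG flask, 25.6, 17.1 and 14.6 in M14A flask and 40.8 and 57.9 in printed cells. No groups overlapped, and the printed comparison passed (1.34 ± 0.26 SE, adjusted p = 0.0054). Between the flask lines the value was 0.64 ± 0.23 (SE; adjusted p = 0.064), and it passed without M14A flask library 3. MT-TV, the valine tRNA between the rRNAs, had 18, 20 and 18 reads in HepaRG flask, 32, 10 and 24 in M14A flask and 37 and 67 in printed cells, and was called higher in printed cells (adjusted p = 0.026), a call lost without either printed library. The leucine (UUR) tRNA, MT-TL1, had 105, 97.6 and 56.9 FPKM in M14A flask and 104 and 223 in printed cells, overlapping and not called. Its log2 fold change of 0.85 became 1.40 without printed library 1 and 1.02 without M14A flask library 1, and both passed. MT-TY, the tyrosine tRNA, overlapped in all groups.

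Of the 11 tRNAs with under 20 reads, 2 were called. MT-TK, the lysine tRNA, had 5, 7 and 4 reads in HepaRG flask and 1, 1 and 3 in M14A flask, and was called lower there (adjusted p = 0.012). MT-TW, the tryptophan tRNA, had 1, 0 and 0 reads in M14A flask and 3 and 7 in printed cells, and was called higher there (adjusted p = 0.0059). It passed the filter on low values through both printed libraries and HepaRG flask library 3, and the calls of both genes rest on a few reads. The other 9 (MT-TF, MT-TI, MT-TQ, MT-TM, MT-TA, MT-TS1, MT-TD, MT-TS2 and MT-TE) had 0 to 19 reads in any library and no call with all libraries. With a library left out, MT-TI, MT-TM and MT-TA were called lower between the flask lines, and in printed cells MT-TI and MT-TD were called higher and MT-TS2 lower. All 37 genes passed the filter.

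The nuclear partners of these genes were taken as lists. In printed cells many nuclear subunits of the respiratory complexes were higher: 28 of 35 tested complex I genes were called higher and 0 lower, against 17.7% higher and 15.5% lower over all genes, with a median log2 fold change of 0.95. The largest were NDUFB11 at 1.42 (adjusted p = 0.0026) and NDUFB7 at 1.30 (adjusted p = 0.0026), accessory subunits of the membrane arm. In complex II, which has no mitochondrially encoded subunit, 2 of 4 were higher, namely SDHB at 0.83 and SDHD at 0.58. Complex III had 6 of 9 higher, led by UQCRB at 1.34 and UQCRH at 1.31, complex IV 11 of 11, led by COX8A at 1.46 and COX6A1 at 1.37, and the ATP synthase 11 of 15, led by ATP5ME at 1.27 and ATP5F1E at 1.21. No gene of these 4 lists was called lower. Their medians were 0.46, 0.95, 1.28 and 1.06. Mitochondrial ribosomal proteins, which assemble on the 2 rRNAs, had 41 of 77 higher and 0 lower, led by MRPL23 at 1.23 and MRPL52 at 1.198.

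Short genes in general were higher in printed cells, and the part of gene length in the counts of the nuclear lists above was not tested. Of 496 tested protein-coding genes under 1500 bases outside the mitochondrial genome, 55.2% were called higher, with a median of 0.72, and over 14312 such genes of any length the Spearman correlation of fold change with length was -0.28, a description across genes. With each library's length trend removed, an alternative chosen after seeing the data, 29 complex I, 10 complex IV, 11 ATP synthase and 30 ribosomal protein genes were called higher. Over all 14349 genes 2196 were then higher and 2104 lower. The mitochondrial genes stood at 16 higher and 4 lower. Their mRNAs called higher went from 7 to 5, without MT-ND1 and MT-CYB, while the tRNAs MT-TL1, MT-TI and MT-TD became called higher. The trend was fitted on genes outside the mitochondrial genome only. With equal FPKM totals 9 complex I, 9 complex IV, 7 ATP synthase and 8 ribosomal protein genes were called higher. Complex III then had 4 higher, and complex II had 0 higher and 2 lower. Over all 14928 genes tested in that setting, 483 were called higher and 6779 lower. Without M14A flask library 1 there were 65 ribosomal protein genes, 9 complex III and 4 complex II genes called higher. Over all genes that fit called 4040 of 14219 higher, against 2544 of 14349 with all libraries. The median of the 13 mitochondrial mRNAs with the length trend removed was 0.31.

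Between the flask lines, where 16.1% of all genes were called higher and 14.7% lower, the counts in these lists were as follows. Complex I had 3 of 35 higher and 2 lower, with NDUFA2 at 0.79 and NDUFA6 at -0.90 the largest, complex III 1 of 9 (UQCR11 at 0.52), the ATP synthase 1 of 15 (ATP5MF at 0.44), and complexes II and IV 0 of 4 and 0 of 11 by limma and by voom (2 and 1 at an unadjusted p under 0.05, all higher). The member with the highest mean in those last lists was SDHB, at 0.30, and COX8A, at 0.21. Ribosomal proteins had 4 of 77 higher and 2 lower, among them MRPL27 at 0.61 and MRPS14 at -0.58. Medians of these 6 lists were 0.07 to 0.37.

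**Figure D5:**
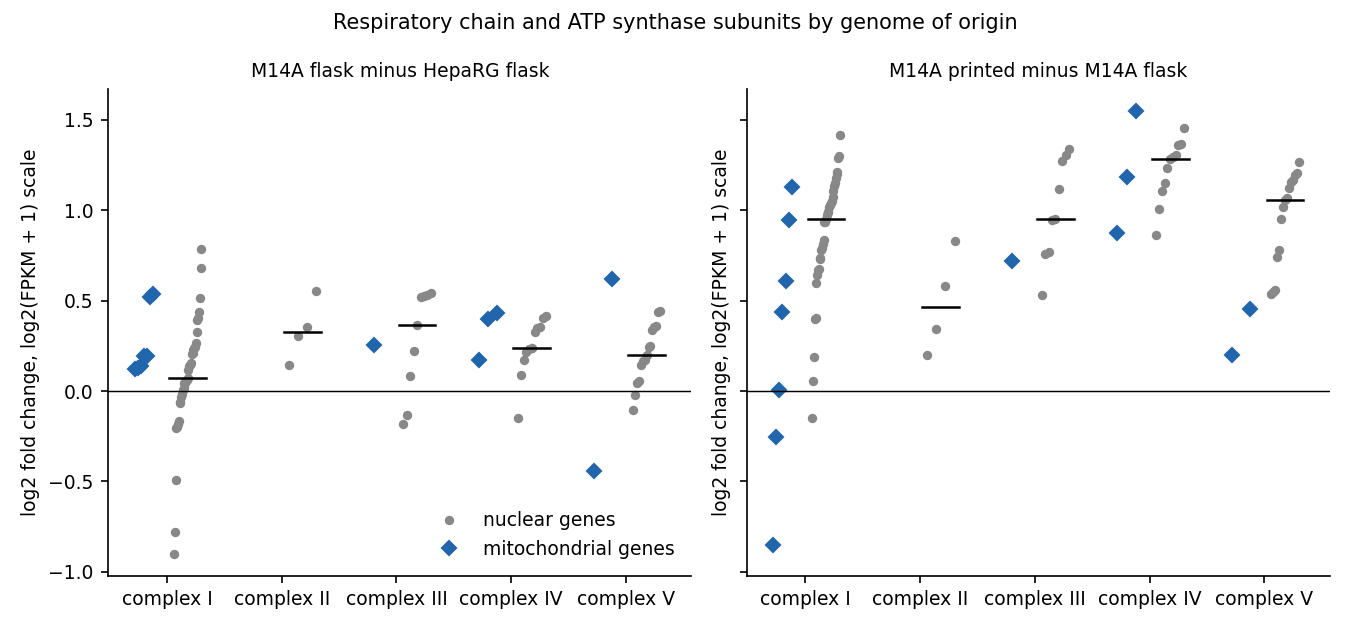
Each point is the log2 fold change of a respiratory complex or ATP synthase (complex V) subunit, in blue where the mitochondrial genome encodes it and in grey where the nuclear genome does, with a line at the nuclear median, for both comparisons. In the printed panel the nuclear medians run from 0.46 to 1.28, and the mitochondrial complex I subunits spread from -0.85 to 1.13.

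Genes that make and process mitochondrial RNA gave counts that are to be read against 17.7% of all genes called higher and 15.5% lower in printed cells. Nothing particular to these lists is read from the counts. Of 8 transcription genes 0 were higher (also 0 at an unadjusted p under 0.05 and by voom) and 1 lower, MTERF4 at -0.43, and the median was -0.26. Of 10 genes for transcript cleavage and the FASTK family, HSD17B10, a subunit of mitochondrial RNase P, was higher at 1.08 and 2 were lower, including FASTKD5, which is needed for cleavage at junctions without a tRNA, at -1.14. Of 9 genes for RNA stability and decay, SLIRP, which with LRPPRC protects mRNAs, was 1 of 2 called higher, at 1.13, and PDE12, which shortens poly(A) tails, was lower at -1.01. Among 14 DNA replication genes 4 were higher and 1 lower, led by DGUOK at 0.91 and SSBP1, the single-stranded DNA binding protein, at 0.90. Of 10 tRNA modification genes 1 was higher and 3 lower, among them TRMT5 at -0.66 and GTPBP3 at -0.63. Of 12 translation factor genes TUFM, the elongation factor Tu, was the only call, at 0.86, and 0 of 8 rRNA modification genes were called by limma or by voom (0 at an unadjusted p under 0.05), MRM2 standing at -0.13. Among 7 tested regulators of mitochondrial biogenesis, PPRC1, a PGC-1 relative, was lower at -1.59 and NRF1 at -0.53.

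A further pair of lists follows mitochondrial content and stress. Of 11 genes often used as proxies of mitochondrial mass, 6 were higher, including PHB2 at 1.01 and CYCS, cytochrome c, at 0.86, and 0 were lower. Over all genes 17.7% were called higher and 15.5% lower in printed cells. Of 11 protein quality control genes, HSPE1 at 1.13 and CLPP at 0.85 were higher, which is near the share over all genes. These lists gave medians of 0.61 and 0.39, against 0.01 over all genes. Between the flask lines these 10 lists gave 0 to 2 calls in each direction, against 16.1% of all genes higher and 14.7% lower. Nothing particular to the lists is read from these calls. Higher calls included RRM2B at 1.53, a ribonucleotide reductase subunit, ELAC2 at 0.86, which cuts tRNA 3′ ends, MRM3, an rRNA methyltransferase, at 0.97, and TSFM at 0.48. Lower calls included TOMM22 at -0.95, CYCS at -0.38, TRMU at -0.94, PPARGC1A, the biogenesis coactivator PGC-1alpha, at -0.88, GFM2 at -0.75, PNPT1 at -0.73, TRMT61B at -0.50, POLG2 at -0.61 and FASTKD1 at -0.55. Transcription and quality control genes had 0 calls by limma and by voom (1 and 0 at an unadjusted p under 0.05). Their members with the highest mean were HSPD1, a chaperonin, at -0.25, and POLRMT, the mitochondrial RNA polymerase, at 0.06 (adjusted p = 0.90).

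Nuclear copies of mitochondrial genes could take reads from them or lend reads to them. The table lists 407 such copies, 100 of them above 0 in any library and 8 tested. The largest 3 lie on chromosome 1. MTATP6P1 had 258 to 329 FPKM in HepaRG flask, 360.4 to 645 in M14A flask and 529 to 641 in printed cells, which is 6.67 to 7.67, 6.9998 to 8.30 and 6.62 to 7.32 reads per 100 reads of MT-ATP6. MTND2P28 took 7.55 to 8.15 per 100 reads of MT-ND2 in HepaRG flask, 6.93 to 8.53 in M14A flask and 4.26 to 4.84 in printed cells. MTCO1P12 took 0.522 to 0.606, 0.370 to 0.458 and 0.457 to 0.469 per 100 reads of MT-CO1. All copies together held under 0.1% of reads in every library. MTATP6P1 was called higher between the flask lines, and MTCO1P12, MTCO3P12, MTRNR2L12 and MTCO2P12 in printed cells. MTRNR2L12 was at 0.145 to 0.418 FPKM in flask libraries and at 2.21 and 3.12 in printed ones. It thus passed the filter only through the printed libraries, and its call is not read as a result. Reads of near-identical copies cannot be assigned with certainty, so levels of both members of each pair carry this uncertainty.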

How the data were processed

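RNA was sequenced from 8 libraries in 3 groups (HepaRG flask n = 3, M14A flask n = 3, M14A printed n = 2). Per the labels' protocols, 1 µg of RNA entered each NEBNext Ultra library. HISAT2 2.0.5 and featureCounts 1.5.0-p3 are named in the submitters' processing notes, without options. The sources used here give no strand setting, RNA selection or build. Gene levels were deposited by the authors as FPKM with gene lengths. The coordinates of all 37 members equal those of GENCODE 29. FPKM times length came out as whole reads for 100% of values (tolerance 0.01). The authors' denominators, 0.818 to 1.2046 times the reads, follow median-ratio size factors, so a change common to most genes is scaled away. For a gene of 1 kb, 1 read is worth 0.0435 to 0.0747 FPKM. Every per-sample column was mapped (0 left over).

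The 14349 genes that reached 1 FPKM in 2 or more libraries were fitted as log2(FPKM + 1) by limma 3.58.1 (R 4.3.3, trended eBayes), using a mean per group (5 residual degrees of freedom), two-sided, Benjamini-Hochberg threshold 0.05. A fold change on this scale understates the change of low genes. The same fit was also run on simulated reads, with a spread fixed in advance and equal for all libraries. That run does not represent the uneven spread between the real libraries and lends no support to the calls. Shares and ratios used exact permutation tests (scipy 1.17.1). Replicate pairs differed by more than sampling noise (chi-square per degree of freedom 2.84 to 78.0). The members and all lists were chosen with earlier results of these data known. All 37 members are described. From each list the 2 called genes with the largest change in a comparison are named, or the highest-mean gene where none was called, and the 3 highest nuclear copies. The other nuclear copies named were chosen because they were called, and the markers named as at or near 0 after their values were seen. APOB, COL1A1 and the flask levels of KRT7 were added because they go against other named members of their lists. Alternatives were other pseudocounts, filters, scalings, thresholds and models, a replicate block and each library left out.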

Additional observations from a re-analysis of the deposited data

How the results depend on the processing

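The number of mitochondrial genes called higher between the flask lines (8) was 3 with a pseudocount of 0.01, 1 without a filter, 5 with quantile scaling, 1 at a threshold of 0.01, 5 with the length trend removed (added after the data were seen) and 2 to 8 with a library left out. The number called lower (2) was 1 with a filter at 5 FPKM, with voom and at 0.01, 4 with equal FPKM totals and 2 to 4 with a library left out. In printed cells the number higher (15) was 7 without a filter, 6 with quantile scaling, 9 with equal totals and 11 to 18 with a library left out. The number lower (5) was 2 without a filter, 12 with quantile scaling, 3 at 0.01 and 3 to 6 with a library left out. Calls over all genes also moved with these settings. In printed cells equal totals gave 483 higher and 6779 lower of 14928 genes, and no filter gave 2038 and 1621 of 36423. The median of the mRNAs between the flask lines (0.19) was 0.00 with quantile scaling and -0.0097 with equal totals. In printed cells (0.61) it was -0.46 and -0.16, 0.025 with equal totals outside the mitochondrial genome and 0.31 without the length trend. As a percent of the FPKM total the shares differed by 3.69 and 8.49 points, and without the rRNAs by 0.97 and 3.19 points. The ratios of rRNA to mRNA and of MT-ND6 to heavy-strand mRNAs kept their direction with any library of the 2 groups left out and with summed FPKM in place of reads.

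Among genes called with the deposited scaling or with the other one, quantile scaling turned MT-ND1 to -0.18 between the flask lines, and in printed cells MT-ND1 to -0.35, MT-ND2 to -0.054, MT-CO1 to -0.53, MT-ATP6 to -0.52, MT-ND4 to -0.73, MT-ND6 to -1.10 and MT-CYB to -0.32. Equal totals turned MT-ND1 to -0.16, MT-ND6 to -0.76 and MT-CYB to -0.043, and equal totals outside the mitochondrial genome MT-ND6 to -0.58. Of mRNAs called under neither, MT-ATP6, MT-ND4 and MT-ATP8 turned in printed cells to -0.31, -0.33 and -0.56 with equal totals and to -0.13, -0.15 and -0.38 with equal totals outside the mitochondrial genome, and MT-ATP8 to -0.46 with quantile scaling. Both equal-total settings also lower the median of all genes in printed cells, to -0.51 and -0.39, whereas quantile scaling puts it at 0.00084.

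Replicate numbers were not taken to pair the libraries. Deviations of same-numbered libraries correlated at -0.07, 0.08 and -0.16 between the flask lines and at 0.49 and 0.36 between M14A flask and printed, where the deviations of the 2 printed libraries mirror each other and so cannot settle the pairing. With the replicate block the counts were 8 higher and 4 lower between the flask lines and 17 and 5 in printed cells. With 2 printed libraries, and tRNAs of under 20 reads, small changes could not be detected.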
